A study of Rattus norvegicus with 115 samples.

Results

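Described here are 9 genes that encode regulators of the actin cytoskeleton and of integrin adhesion in white blood cells, namely Was, Nckap1l, Hcls1, Lpxn, Arhgap15, Arhgap25, Bin2, Fermt3 and Parvg, out of 17455 genes in a table of RNA-seq counts from sorted fractions of rat mammary tumours. The genes were taken by symbol and had been selected on levels in earlier results of these data. All 9 were in the table and all 9 passed the filter on low counts. Columns of the table are named by rat and tumour and carry no sorted fraction, so columns were grouped by Ptprc, which encodes the leukocyte antigen CD45. In 62 columns Ptprc stayed under 150 CPM (counts scaled to the column total), and these are called low-Ptprc columns. In 44 columns it reached at least 300 CPM, and these are called leukocyte columns. A further column lay between the limits, and 1 column was not used. Since Ptprc chose the columns, every difference between low-Ptprc and leukocyte columns is given as a description, with no test.

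All rats were virgin Sprague Dawley rats given N-nitroso-N-methylurea (NMU), a carcinogen that induces mammary tumours, at 50 mg/kg in 1 to 3 injections between 35 and 53 days of age. Once tumours could be felt, rats received anti-PD-L1 (an antibody that blocks an immune checkpoint), LY2157299 (a small molecule that inhibits TGFBR1, a kinase receptor for TGF-beta), both agents, or vehicle. A separate characterization cohort of rats with tumours received no treatment. Low-Ptprc columns came from 7 anti-PD-L1 rats (16 columns), 4 inhibitor rats (8 columns), 6 combination rats (13 columns), 7 vehicle rats (15 columns) and 8 rats with untreated tumours (10 columns). Leukocyte columns came from 5 anti-PD-L1 rats (8 columns), 5 inhibitor rats (7 columns), 6 combination rats (8 columns), 8 vehicle rats (12 columns) and 7 rats with untreated tumours (9 columns). Columns of a rat were summed for every comparison of treatments, because treatment was given to the rat, whereas correlations and residual medians are over single columns and are descriptions.

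Cells move and attach by pushing the membrane outward with branched actin and by clamping integrins onto their ligands. Blood cells run this machinery partly with family members of their own, next to the ubiquitous ones that other tissues use. In humans and mice, Was encodes the Wiskott-Aldrich syndrome protein, which switches on the actin-branching Arp2/3 complex, Nckap1l encodes HEM1, a subunit of the WAVE complex that also drives Arp2/3, and Hcls1 encodes HS1, a relative of cortactin that binds Arp2/3 and actin filaments. Arhgap15 and Arhgap25 encode GTPase-activating proteins that turn off the small GTPase Rac, and Bin2 encodes a membrane-bending BAR domain protein. Fermt3 encodes kindlin-3, which activates integrins and whose loss causes a leukocyte adhesion deficiency. Parvg encodes gamma-parvin, an adaptor at adhesions that binds integrin-linked kinase, and Lpxn encodes leupaxin, an adaptor of the paxillin family.

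Promoter windows from 250 bases before to 50 bases after the gene start were read from RefSeq, assembly GRCr8, which is not the build of the counts. The table held windows for 7 of the 9 genes, all but Nckap1l and Bin2. The 4 windows printed here belong to Arhgap25 and Lpxn, the members with a window that had the larger fold changes with the combination, to Hcls1, which was low in the untreated cohort, and to Parvg, the member with the widest spread. Arhgap25 lies at chr4:121532244-121532543 on the minus strand, Lpxn at chr1:219355418-219355717 on the plus strand, Hcls1 at chr11:77346284-77346583 on the minus strand and Parvg at chr7:117335937-117336236 on the plus strand. Each is written 5′ to 3′ along its gene, and capitals mark GAGGAAGT and TGTGGT, on either strand.
Arhgap25: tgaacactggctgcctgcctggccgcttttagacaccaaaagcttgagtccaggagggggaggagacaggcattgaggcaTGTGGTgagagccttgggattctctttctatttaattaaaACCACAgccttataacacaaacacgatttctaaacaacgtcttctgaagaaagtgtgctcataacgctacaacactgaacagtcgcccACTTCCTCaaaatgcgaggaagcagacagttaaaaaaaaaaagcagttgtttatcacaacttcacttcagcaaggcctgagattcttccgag
Lpxn: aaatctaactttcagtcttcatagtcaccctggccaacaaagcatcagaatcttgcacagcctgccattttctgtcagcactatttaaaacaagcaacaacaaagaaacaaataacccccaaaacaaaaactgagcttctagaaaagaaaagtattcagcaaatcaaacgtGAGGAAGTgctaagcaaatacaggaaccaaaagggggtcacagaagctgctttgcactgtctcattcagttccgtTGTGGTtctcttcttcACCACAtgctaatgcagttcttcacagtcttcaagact
Hcls1: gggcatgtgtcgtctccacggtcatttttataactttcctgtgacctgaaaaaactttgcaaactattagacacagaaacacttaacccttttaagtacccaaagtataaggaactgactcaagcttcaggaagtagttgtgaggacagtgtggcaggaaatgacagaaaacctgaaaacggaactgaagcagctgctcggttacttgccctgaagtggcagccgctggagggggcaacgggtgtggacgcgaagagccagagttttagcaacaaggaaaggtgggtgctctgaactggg
Parvg: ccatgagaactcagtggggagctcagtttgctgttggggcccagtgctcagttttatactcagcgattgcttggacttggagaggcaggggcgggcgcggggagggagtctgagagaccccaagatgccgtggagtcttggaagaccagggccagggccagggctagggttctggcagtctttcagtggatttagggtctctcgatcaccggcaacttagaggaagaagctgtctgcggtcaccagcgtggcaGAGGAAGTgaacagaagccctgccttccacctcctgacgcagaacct

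GAGGAAGT is an octamer of the kind bound by ETS-family factors and TGTGGT is the core of a RUNX element. The motifs, 4 in all, were searched on both strands and were chosen after the windows had been seen. The other two were GAGGAA, a shorter run, and the hexamer AGGAAG, which both lie inside the octamer, so the matches overlap. GAGGAAGT stood in 3 of the 7 members' windows, starting at position -42 in Arhgap25 (on the opposite strand), at -79 in Lpxn and at 4 in Parvg, counted from the gene start, and in 2.42% of 33469 RefSeq windows of this length. TGTGGT stood in 5 of 7, namely Was, Lpxn, Arhgap15, Arhgap25 and Fermt3, against 17.3% of all windows. GAGGAA stood in 4 of 7 against 27.6%, and AGGAAG in 7 of 7 against 34.5%. These are matches of letters, and binding was not measured.

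Low-Ptprc columns held 2353564 to 26635144 counts and leukocyte columns 6609198 to 29727437. A count of 3, the limit that a count of 0 allows, corresponded to 0.113 to 1.27 CPM in low-Ptprc columns and to 0.101 to 0.454 CPM in leukocyte columns, for counting error only. Each of the 44 leukocyte columns carried the name of a tumour for which the labels list a CD45 sample. Summed per rat, 8 epithelial markers came to 5169 to 34714 CPM in low-Ptprc columns and 56.7 to 905 CPM in leukocyte columns, and 10 pan-leukocyte markers to 215 to 1838 CPM in low-Ptprc columns and 4146 to 10623 CPM in leukocyte columns. Batches given in the deposited sample table divide the cohorts, since the leukocyte columns of the untreated cohort were all in batch 1 and those of the other groups in batches 2 and 3. The make-up of the leukocyte columns also differed between groups. Summed over 12 macrophage markers, the per-rat level had a median of 1793 CPM (range 167 to 3682) in anti-PD-L1 rats, 1583 CPM (697 to 3274) in inhibitor rats and 1590 CPM (662 to 7248) in combination rats, against 7109 CPM (2322 to 19291) in vehicle rats. Summed over the 11 of 12 T cell markers in the table it had a median of 4875 CPM (4464 to 6396) in anti-PD-L1 rats, 5800 CPM (4968 to 6861) in inhibitor rats and 5908 CPM (3071 to 7973) in combination rats, against 4365 CPM (1610 to 5772) in vehicle rats. B cell markers had positive fold changes against vehicle in 7, 6 and 7 of 7 tested with anti-PD-L1, the inhibitor and the combination (medians of 3.44, 2.06 and 3.47 on the log2 scale, 6, 3 and 5 at an unadjusted p under 0.05). Neutrophil markers had negative ones in 7 of 7 with each (medians of -1.24, -2.49 and -3.04, 1, 3 and 7 at that level). No marker passed the adjusted test, and the part of these shifts in the members' fold changes was not tested. In such bulk samples fewer cells of a type and less RNA per cell cannot be told apart.

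In leukocyte columns the 9 genes were measured well above the counting floor in all 31 rats, and treated and vehicle rats overlapped for every one of them. In the table at large, 1.23% of 6352 genes were higher than in all vehicle rats with anti-PD-L1, 1.7% with the inhibitor and 0.268% with the combination, and 0.063%, 0.0315% and 0.0472% were lower. No gene of the table passed edgeR's test at an adjusted p under 0.05 between treated and vehicle rats, the 9 members included. With the combination, Arhgap25, Nckap1l and Lpxn had the largest positive fold changes, and in each treatment those of Was, Hcls1, Arhgap15 and Bin2 lay between -0.19 and 0.04. Between cohorts, Hcls1 and Bin2 were lower in untreated tumours than in every vehicle rat by CPM of column totals, which for Hcls1 did not hold after TMM scaling.

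**Figure D1:**
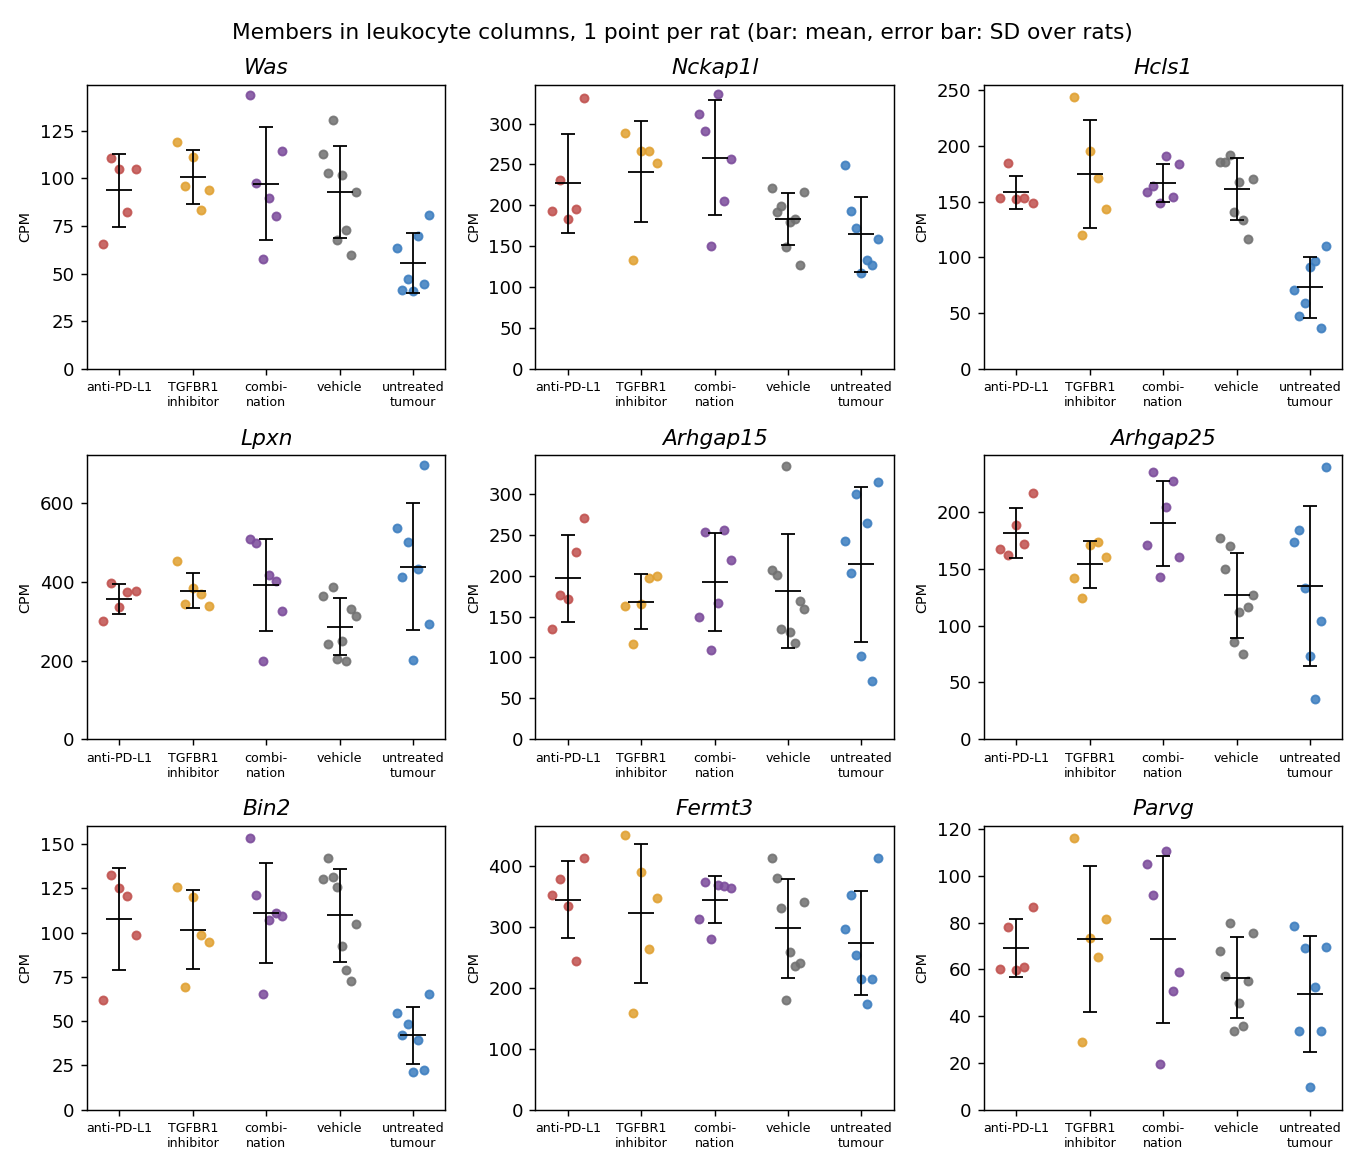
CPM per rat in leukocyte columns for the 9 genes, with 1 point per rat, a bar at the group mean and error bars of 1 SD, from anti-PD-L1, inhibitor and combination rats to vehicle and untreated rats. The treated points overlap the vehicle points in all 9 member panels, and the untreated points of Hcls1 (36.5 to 110.5 CPM) lie below those of all other groups.

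Of the genes that promote branched actin, Was stood at 65.6, 82.5, 104.8, 104.9 and 110.8 CPM in the anti-PD-L1 rats and at 83.6, 93.8, 95.8, 111.2 and 119.0 CPM in the inhibitor rats. It ran from 57.5 over a median of 93.7 to 143.9 CPM in the combination rats, against 59.9, 97.1 and 130.7 CPM in the vehicle rats. The groups overlapped widely, and the log2 fold changes against vehicle were -0.06 ± 0.18, 0.04 ± 0.18 and -0.004 ± 0.17 (± SE) for anti-PD-L1, the inhibitor and the combination.

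Nckap1l stood at 183.4, 193.4, 195.3, 230.6 and 331.0 CPM in the anti-PD-L1 rats and at 133.0, 251.6, 266.7, 266.7 and 287.9 CPM in the inhibitor rats. In the combination rats it ran from 150.6 over 273.6 to 336.3 CPM, against 127.6, 187.4 and 221.1 CPM in the vehicle rats. Of the inhibitor rats 4 lay above every vehicle rat, and the fifth, at 133.0 CPM, lay near the vehicle minimum. The log2 fold changes against vehicle were 0.22 ± 0.18 with anti-PD-L1, 0.31 ± 0.18 with the inhibitor and 0.40 ± 0.17 with the combination. For the combination the 95% interval was 0.05 to 0.76 and p was 0.028 by edgeR's quasi-likelihood test, 0.262 after Benjamini-Hochberg adjustment over 11932 genes.

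Hcls1 stood at 148.3, 152.3, 153.0, 153.1 and 184.8 CPM in the anti-PD-L1 rats and at 119.9, 143.2, 171.6, 195.3 and 244.3 CPM in the inhibitor rats. It ran from 148.5 over 161.1 to 191.3 CPM in the combination rats, against 116.8, 168.8 and 191.8 CPM in the vehicle rats. The group means were 158.3 ± 14.9 CPM (SD, n = 5), 174.9 ± 48.2 CPM (n = 5) and 166.7 ± 17.1 CPM (n = 6), against 161.5 ± 27.7 CPM in vehicle rats (n = 8), so that the vehicle mean lay within 1 SD of each treated mean. The log2 fold changes were -0.10 ± 0.15, 0.03 ± 0.15 and -0.01 ± 0.14 for anti-PD-L1, the inhibitor and the combination.

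Of the Rac-inactivating proteins, Arhgap25 had the larger fold changes against vehicle. It stood at 161.9, 167.3, 172.1, 188.7 and 216.9 CPM in the anti-PD-L1 rats and at 124.6, 141.8, 160.7, 170.9 and 173.3 CPM in the inhibitor rats. In the combination rats it ran from 143.1 over 187.8 to 234.9 CPM, against 74.7, 121.6 and 177.1 CPM in the vehicle rats. The groups overlapped, since the highest vehicle rat exceeded 3 of the 5 anti-PD-L1 rats. Means were 181.4 ± 22.2 CPM with anti-PD-L1 (SD, n = 5), 154.3 ± 20.7 CPM with the inhibitor (n = 5) and 190.2 ± 37.6 CPM with the combination (n = 6), against 126.7 ± 37.1 CPM with vehicle (n = 8).

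In edgeR, Arhgap25 had a log2 fold change of 0.45 ± 0.17 with anti-PD-L1 (95% interval 0.10 to 0.80, p = 0.014, adjusted p = 0.331). With the inhibitor it was 0.21 ± 0.17 (-0.14 to 0.56, p = 0.225, adjusted p = 0.553). With the combination it was 0.52 ± 0.16 (0.19 to 0.85, p = 0.0036, adjusted p = 0.153). None passed, and over the other settings the adjusted p for the combination ran from 0.0613 to 0.949. Within batch 2 the log2 fold changes were 0.84 with anti-PD-L1 (4 rats against 4), 0.45 with the inhibitor and 0.94 with the combination (2 rats against 4), and within batch 3 they were 0.31, 0.23 and 0.42 in the same order. The sign was the same in both batches. The log2 CPM of Arhgap25 went with the macrophage marker sum at r = -0.71 over the 35 leukocyte columns of treated and vehicle rats (-0.69 and -0.78 within batches 2 and 3). Over all 44, where columns of a rat share that rat, r was -0.53, and within batch 1, which holds untreated tumours, it was -0.32. The part of cell make-up in its fold changes was not tested.

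Arhgap15 stood at 135.2, 171.7, 176.4, 229.2 and 270.0 CPM in the anti-PD-L1 rats and at 116.4, 162.5, 165.6, 196.8 and 199.7 CPM in the inhibitor rats. It ran from 108.8 over 192.8 to 255.5 CPM in the combination rats, against 117.2, 164.0 and 333.8 CPM in the vehicle rats. The log2 fold changes were 0.03 ± 0.23, -0.19 ± 0.23 and -0.01 ± 0.22, within 1 SE of 0 in all 3 treatments. Bin2 averaged 107.7 ± 28.6 CPM with anti-PD-L1 (SD, n = 5), 101.6 ± 22.3 CPM with the inhibitor (n = 5) and 111.2 ± 28.3 CPM with the combination (n = 6), against 109.8 ± 26.3 CPM with vehicle (n = 8). These means differed by less than 1 SD, and the log2 fold changes were -0.10 ± 0.18, -0.19 ± 0.18 and -0.05 ± 0.17.

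Among the adhesion proteins, Lpxn stood at 300.8, 334.8, 374.6, 377.6 and 396.7 CPM in the anti-PD-L1 rats and at 339.0, 344.6, 368.2, 385.1 and 452.0 CPM in the inhibitor rats. In the combination rats it ran from 199.0 over 410.1 to 509.2 CPM, against 200.03, 281.7 and 385.6 CPM in the vehicle rats. The combination rats held both the lowest and the highest of these values. Its log2 fold changes were 0.23 ± 0.18, 0.31 ± 0.18 and 0.36 ± 0.17, with p = 0.051 and an adjusted p of 0.320 for the combination in edgeR. Lpxn was the member that moved most with the macrophage and T cell sums, at r = -0.75 and r = 0.71 over the 44 leukocyte columns. With the B cell sum its r was 0.09, the lowest of the 9 members, and with the NK cell sum it was 0.11. Within batches 1, 2 and 3 (9, 16 and 19 columns) the values were -0.81, -0.68 and -0.81 for macrophage markers and 0.68, 0.78 and 0.87 for T cell markers. The part of this in the fold changes of Lpxn was not tested.

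Fermt3 averaged 344.3 ± 63.2 CPM with anti-PD-L1 (SD, n = 5), 322.2 ± 114.1 CPM with the inhibitor (n = 5) and 344.6 ± 38.6 CPM with the combination (n = 6), against 297.5 ± 80.9 CPM with vehicle (n = 8). Parvg averaged 69.2 ± 12.45, 73.1 ± 31.3 and 72.8 ± 35.8 CPM in those 3 groups, against 56.4 ± 17.3 CPM with vehicle. The means of both genes were higher in each treated group by less than the SD of the vehicle rats, with log2 fold changes of 0.14, 0.02 and 0.15 for Fermt3 and of 0.22, 0.28 and 0.25 for Parvg. Parvg was also the most variable of the 9 genes over all rats, from 9.84 to 116.1 CPM, or 11.8-fold.

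Taking the 9 genes as a list, fold changes were positive for 6 members with anti-PD-L1, 7 with the inhibitor and 5 with the combination, against 48.1%, 50.3% and 50.6% of the 11932 genes tested. The median log2 fold change of the members was 0.14, 0.04 and 0.15, against -0.02, 0.004 and 0.006 over all genes. At an adjusted p under 0.05 edgeR called 0 members and 0 genes in each treatment (0% of those tested). At an unadjusted p under 0.05 it held 1 member (Arhgap25) with anti-PD-L1, where 11.8% of genes did so, 0 members with the inhibitor, where 17.1% did, and 2 members (Arhgap25 and Nckap1l) with the combination, where 15.7% did. With 9 members these counts are near the background shares. DESeq2 called 153, 414 and 335 genes with anti-PD-L1, the inhibitor and the combination, and 0 members.

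**Figure D2:**
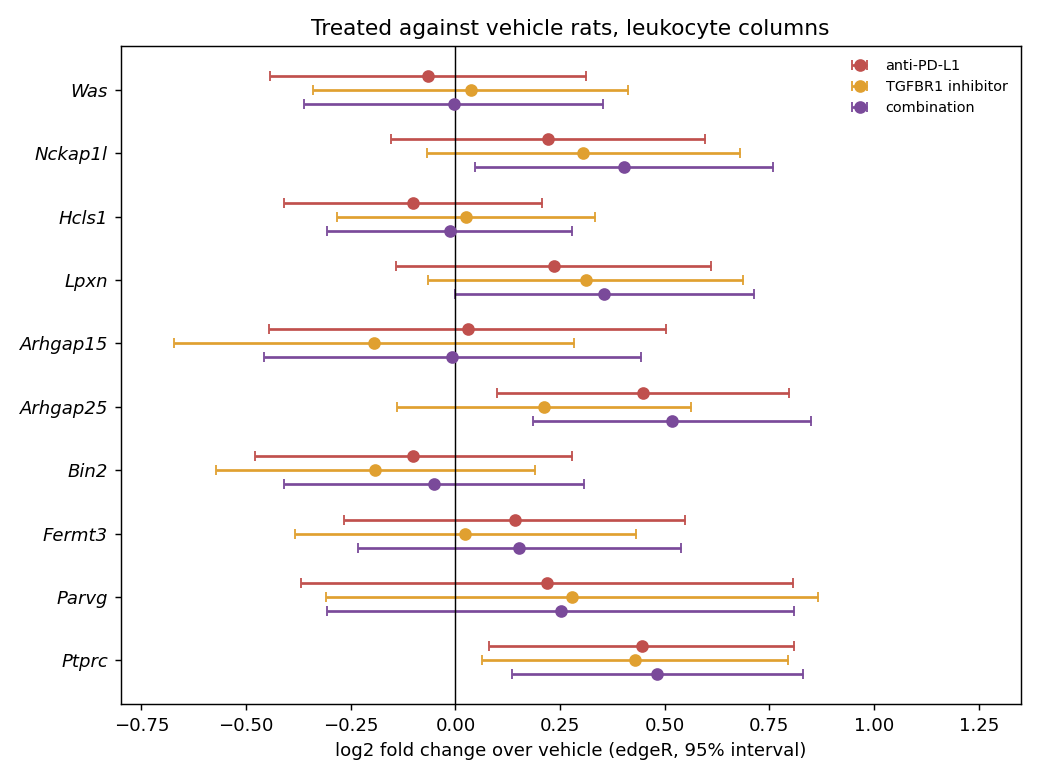
Log2 fold change against vehicle in leukocyte columns (points) with the 95% interval (lines) for the 9 genes and Ptprc, under anti-PD-L1, the TGFBR1 inhibitor and the combination, from edgeR over 11932 genes. The intervals of Arhgap25 exclude 0 with anti-PD-L1 and the combination and that of Nckap1l with the combination, and no adjusted p passed 0.05.

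Set against the single agents, the combination passed the test for no member. The largest difference was that of Arhgap25 against the inhibitor, with a log2 fold change of 0.31 ± 0.18 (95% interval -0.07 to 0.68, adjusted p = 0.9995, edgeR). At an unadjusted p under 0.05, 0 of 9 members and 0.939% of all genes differed between combination and anti-PD-L1, and 0 of 9 members and 1.37% between combination and inhibitor. In the interaction of the 2 agents, which asks whether their joint effect differs from the sum of the single ones, the members' log2 values lay between -0.25 and 0.24 with 0 of 9 at that level, against 7.15% of genes. edgeR and DESeq2 both called 0 genes in these 3 comparisons.

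Ptprc itself was high in treated rats without passing the test, which bears on any level set relative to it. It stood at 1133, 1164, 1169.7, 1416 and 1539 CPM in the anti-PD-L1 rats and at 996, 1044, 1074, 1581 and 1602 CPM in the inhibitor rats. It ran from 1137 over 1280.5 to 1647 CPM in the combination rats, against 679.8, 911 and 1021 CPM in the vehicle rats. Ptprc was above every vehicle rat in all anti-PD-L1 rats and all combination rats, as were 1.23% and 0.268% of 6352 genes with a mean of at least 20 CPM, and as 0 of the 9 members were. The log2 fold changes of Ptprc were 0.44, 0.43 and 0.48, with adjusted p of 0.354, 0.227 and 0.184 in edgeR.

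Relative to Ptprc, most members and most genes had negative fold changes in treated rats, and no member passed the test. With Ptprc in place of TMM as the scale, 9, 8 and 8 of the 9 members had negative log2 fold changes with anti-PD-L1, the inhibitor and the combination, with medians of -0.32, -0.27 and -0.35. This scale moved the median of all genes to -0.48, -0.36 and -0.49 and left 13.97%, 24.1% and 14.2% of genes above 0. Measured from that shifted median, only 3, 2 and 3 of the 9 members lay below it. Nckap1l and Lpxn were therefore positive against vehicle on the scale of all counts and negative on the scale of Ptprc in each treatment. Arhgap25 was negative on the scale of Ptprc with anti-PD-L1 and the inhibitor, and at 0.02 with the combination.

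Other genes of the same machinery did not pass the test in any treatment. Of the WASP and WAVE list 19 of 20 genes were tested, with positive fold changes for 9, 9 and 10 of them and an unadjusted p under 0.05 for 2, 4 and 2, under anti-PD-L1, the inhibitor and the combination. Of the list of leukocyte integrins and their activators 19 were tested, with 12, 11 and 14 positive and 3, 4 and 6 at that level. The shares of all genes at that level were 11.8%, 17.1% and 15.7%. The list genes with the smallest p, named after their values were seen, were Cyfip2, a WAVE complex subunit, and Itga4, the alpha chain of the integrin VLA-4. Cyfip2 had log2 fold changes of 0.87, 0.97 and 1.01 (adjusted p of 0.305, 0.148 and 0.139), and Itga4 had 0.61, 0.83 and 0.85 (adjusted p of 0.365, 0.137 and 0.138, edgeR). Beside these, all 11 macrophage markers tested had negative fold changes in each treatment, with medians of -2.15, -2.18 and -1.93, and the part of that shift in the list values was not tested.

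Between cohorts the contrast was larger for some members. Hcls1 lay at 116.8 to 191.8 CPM in the 8 vehicle rats, against 36.5, 47.4, 59.4, 70.8, 91.3, 96.6 and 110.5 CPM in the 7 rats with untreated tumours. Bin2 lay at 72.8 to 142.0 CPM in vehicle rats, against 21.4, 22.7, 39.3, 42.1, 48.2, 54.9 and 65.4 CPM in untreated rats. Neither gene overlapped between these cohorts, and both were lower in untreated tumours, as were 80 of 6352 genes (1.26%), while 0.0945% of genes were higher without overlap. Hcls1 was also lower in untreated tumours than in all 24 rats of the other cohort, as was the case for 0.582% of genes, while 0.0157% were higher than in all of them. These separations are by CPM of column totals. TMM factors were 0.569 in untreated rat C2 and 0.725 in C3, against 0.931 in vehicle rat P7. On the TMM scale Hcls1 in C2 and C3 therefore overlaps the vehicle rats. Overlap over all genes was not counted on that scale. Was averaged 92.7 ± 24.3 CPM in vehicle rats (SD, n = 8) and 55.4 ± 15.8 CPM in untreated rats (n = 7), with overlap.

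The other members did not share that pattern. Lpxn averaged 286.1 ± 71.7 CPM in vehicle rats and 438.7 ± 162.0 CPM in untreated rats, and Arhgap15 averaged 181.4 ± 69.4 CPM in vehicle rats and 213.8 ± 94.9 CPM in untreated rats. Arhgap25, Fermt3, Parvg and Nckap1l overlapped widely between these groups. All untreated leukocyte columns were in batch 1 and no vehicle column was, so treatment cohort and batch cannot be told apart, and no test was made.

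Single rats set the extremes of several groups. Combination rat P33 was the lowest of its group for 9 of 9 members, and it was the lowest for 48.1% of 6352 genes. Its macrophage sum of 7248 CPM was the highest and its T cell sum of 3071 CPM the lowest among combination rats. Inhibitor rat P17 was lowest for 7 of 9 members (31.8% of genes) and P16 highest for 7 (29.1% of genes). Untreated rat C2 was lowest for 5 members and for 44.7% of genes. Untreated rat C9 was highest for 6 members (17.3% of genes), and its neutrophil marker sum was 48054 CPM. These ranks are by CPM of column totals, and the TMM factors of C2 and P33 were 0.569 and 0.8325.

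The 9 genes did not vary as a block over the 44 leukocyte columns. These correlations are of log2(CPM + 1), are descriptions only, and rest on columns of which some share a rat and all share a batch with others. Was, Hcls1 and Bin2 went together, with r = 0.83 for Was and Bin2, 0.82 for Hcls1 and Bin2 and 0.76 for Was and Hcls1. Within batches 1, 2 and 3 the values were 0.58, 0.70 and 0.77 for Was and Bin2, 0.34, 0.70 and 0.52 for Hcls1 and Bin2, and 0.43, 0.90 and 0.29 for Was and Hcls1. Arhgap25 and Fermt3 had r = 0.70, with 0.78, 0.79 and 0.56 within batches. Hcls1 and Lpxn had r = -0.35 over all columns but 0.23 over the 35 columns of treated and vehicle rats, with -0.65, 0.53 and -0.12 within batches. With Ptprc the members' r ran from 0.07 for Hcls1 to 0.69 for Arhgap25.

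**Figure D3:**
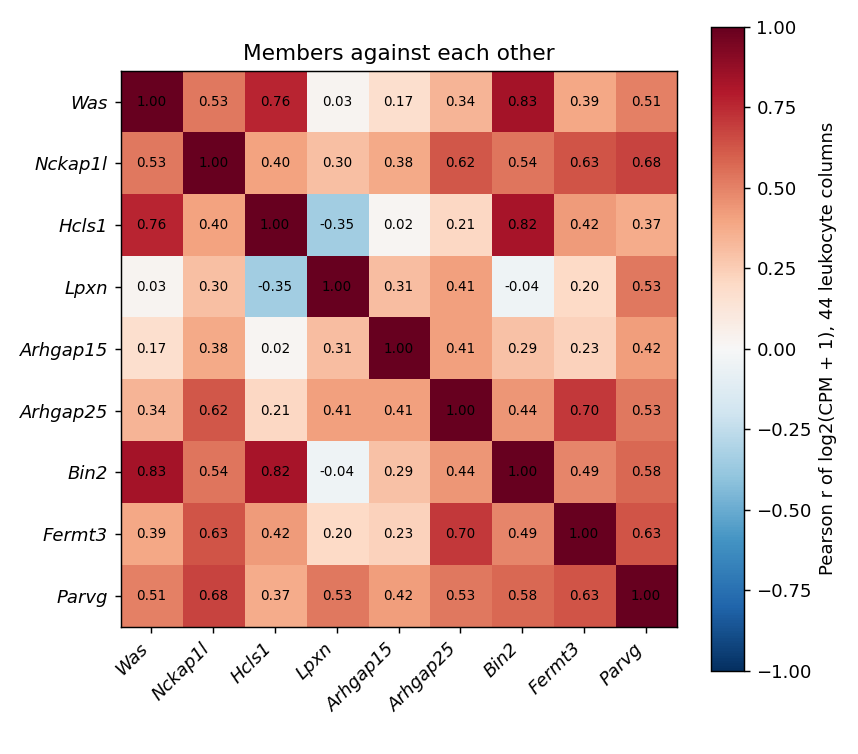
Pearson r of log2(CPM + 1) between the 9 genes over the 44 leukocyte columns, as a colour grid. Was, Hcls1 and Bin2 form the block with the highest values (0.76 to 0.83), and Hcls1 and Lpxn have r = -0.35.

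Among 6391 genes with a mean of at least 20 CPM in leukocyte columns, those whose levels followed each member most closely were as follows. Batches and cohorts were pooled for these r, which were not computed within batches, so differences between batches enter them. Was was closest to Maz and Cbx3 (r = 0.88 and 0.87), Nckap1l to Caprin1 and Lcp1 (both 0.84), and Hcls1 to Wipf1 and Gpsm3 (0.86 and 0.85). Lpxn was closest to Rnf2 (0.83), Arhgap15 to Cep57 (0.75), Arhgap25 to Dmtf1 (0.87) and Bin2 to Gga1 and Ehmt2 (0.90 and 0.89). Fermt3 was closest to Sema4a (0.76) and Parvg to Klhl36 and Abcb8 (both 0.87). Arhgap15 and Fermt3 thus had no gene as close to them as the nearest genes of the other 7 members.

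In the 62 low-Ptprc columns all 9 genes left a small signal, higher relative to their leukocyte level than that of Ptprc. Pooled over columns, Ptprc held 1.20% of its pooled leukocyte CPM, and the members held 1.94% (Arhgap15) to 2.96% (Arhgap25). The value was 1.97% for Bin2, 2.13% for Was, 2.22% for Hcls1, 2.24% for Lpxn, 2.58% for Parvg, 2.60% for Nckap1l and 2.71% for Fermt3. As the median over low-Ptprc columns divided by the median over leukocyte columns, the share was 0.836% (Parvg) to 1.36% (Nckap1l), against 0.556% for Ptprc. Ptprc was the gene that set the low-Ptprc columns apart and is bound to be low there, so the excess over Ptprc is a description.

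Counted per 100 counts of Ptprc, Was stood at 14.01 in low-Ptprc columns and 7.90 in leukocyte columns. Nckap1l stood at 42.6 in low-Ptprc columns against 19.7, Hcls1 at 23.8 against 12.8, Bin2 at 13.7 against 8.37, and Arhgap15 at 26.8 against 16.6 in leukocyte columns. Arhgap25 had the largest ratio, 2.47, with 34.4 in low-Ptprc columns against 13.9 in leukocyte columns, and Arhgap15 had the smallest, 1.62. The adhesion genes stood at 63.7 in low-Ptprc columns against 28.2 in leukocyte columns for Fermt3, 12.7 against 5.93 for Parvg and 62.1 against 33.3 for Lpxn. With the limit on Ptprc lowered to 50 CPM, which left 58 columns, the ratios were 1.84 to 2.54, with Nckap1l (2.54) above Arhgap25 (2.51) and Bin2 (1.84) below Arhgap15 (1.95), so the order depended on the limit.

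The members' share was set beside that of marker genes. The residual percent had a median of 1.03% over T cell markers (0.655% to 2.64%), 3.40% over pan-leukocyte markers (1.20% to 21.8%) and 7.04% over macrophage markers (3.68% to 8.36%), against 2.24% over the 9 members. Over 6392 genes with a mean of at least 20 CPM the median was 96.5%, and 6338 of them exceeded the share of Ptprc, so 9 of 9 members above it is the background value. It was exceeded in 8 of 8 macrophage, 6 of 6 B cell and 4 of 4 NK cell markers at that level, and in 4 of 11 T cell markers.

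The residual was unevenly spread over columns. Medians over the 62 columns ran from 0.526 CPM for Parvg to 4.69 CPM for Lpxn, and 3 to 7 columns had a count of 0 for a member, except for Parvg with 16. Low-Ptprc columns reached the lowest leukocyte column in 1 case for Arhgap25, in 3 for Parvg and in 0 for the other 7 genes. The 10 low-Ptprc columns with the highest CPM of a member held 42.04% to 65.1% of its counts. Over the 62 columns the members' log2 CPM went with that of Ptprc at r = 0.64 to 0.81, and columns of a rat share that rat.

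**Figure D4:**
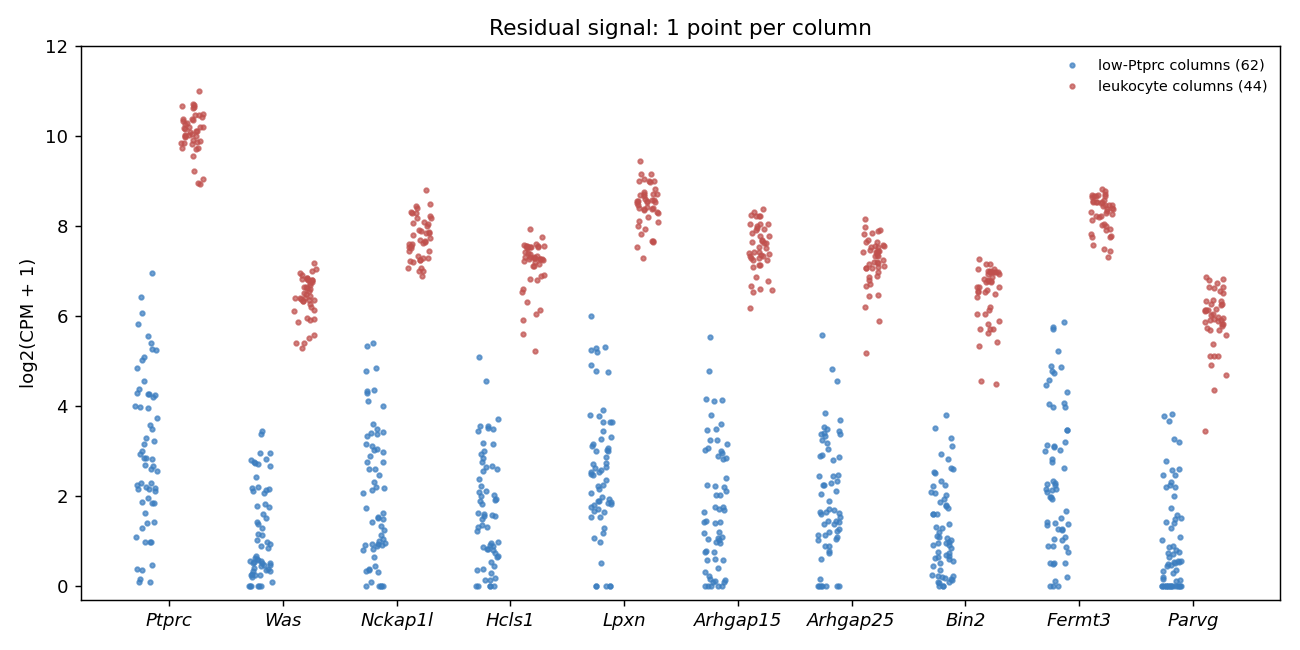
Level of Ptprc and the 9 genes as log2(CPM + 1), with 1 point per column, low-Ptprc columns (62) left of leukocyte columns (44) for each gene. Low-Ptprc columns spread down to a count of 0, and in 7 of the 9 genes none reaches the lowest leukocyte column.

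By treatment, the highest residual of the anti-PD-L1 and combination groups came from 1 rat each. The summed CPM of the 9 members per rat had a median of 16.2 (range 12.04 to 262) in anti-PD-L1 rats, 64.9 (11.4 to 108.8) in inhibitor rats and 24.4 (10.8 to 170) in combination rats, against 49.3 (1.24 to 67.3) in vehicle rats. The highest anti-PD-L1 value was that of rat P28, with 1 column at 124 CPM of Ptprc, just under the limit, and with 261 CPM of T cell and 607 CPM of macrophage markers. The highest combination value was that of rat P23, with 1 column, 183 CPM of T cell and 2534 CPM of macrophage markers. In edgeR, 0 members and 0 of 13732 genes differed at an adjusted p under 0.05 from vehicle in any treatment (0% each), and at an unadjusted p under 0.05 it was 0 members in each treatment and 2.84%, 7.35% and 5.93% of genes. The members' log2 fold changes lay between -1.21 and 1.73, with standard errors of 0.87 to 1.26, so the residual could show only large differences. DESeq2 called 0, 17 and 4 genes and 0 members. Without P28 the log2 fold change with anti-PD-L1 was -0.89 for Hcls1, -0.99 for Fermt3, -0.89 for Arhgap25, -0.87 for Bin2 and -0.38 for Lpxn, each positive with that rat.

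Broadly expressed relatives of the members ran the other way in part. Nckap1, the relative of Nckap1l outside blood cells, stood at 83.6 CPM in pooled low-Ptprc columns against 3.07 CPM in leukocyte columns. Fermt2, which encodes kindlin-2, stood at 158 CPM in low-Ptprc columns against 6.89, and Parva, which encodes alpha-parvin, at 55.2 against 1.30 CPM in leukocyte columns. In each of these 3 families the ubiquitous relative was thus higher in low-Ptprc columns and the blood-cell gene in leukocyte columns. The listed relatives of Arhgap15 and Arhgap25 showed no such contrast. Arhgap12, Arhgap22 and Arhgap24 stood at 39.2, 23.7 and 9.02 CPM in low-Ptprc columns, against 40.4, 26.8 and 7.48 CPM in leukocyte columns. Wasl, which encodes N-WASP, stood at 105.2 CPM in low-Ptprc columns against 53.8 CPM in leukocyte columns, and Pxn, which encodes paxillin, at 265 against 120. Both were therefore abundant in leukocyte columns too. Bin1 went the same way as Bin2, with 58.3 CPM in low-Ptprc columns against 162 CPM in leukocyte columns, and so did Parvb, with 3.85 against 28.3 CPM. Cttn, which encodes cortactin, had few counts in both, with 1.17 against 0.0521 CPM. Its count was 0 in 40 of 62 low-Ptprc columns and in 32 of 44 leukocyte columns. How reads were counted is not given, so few counts of a gene in this table need not mean little RNA.

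**Figure D5:**
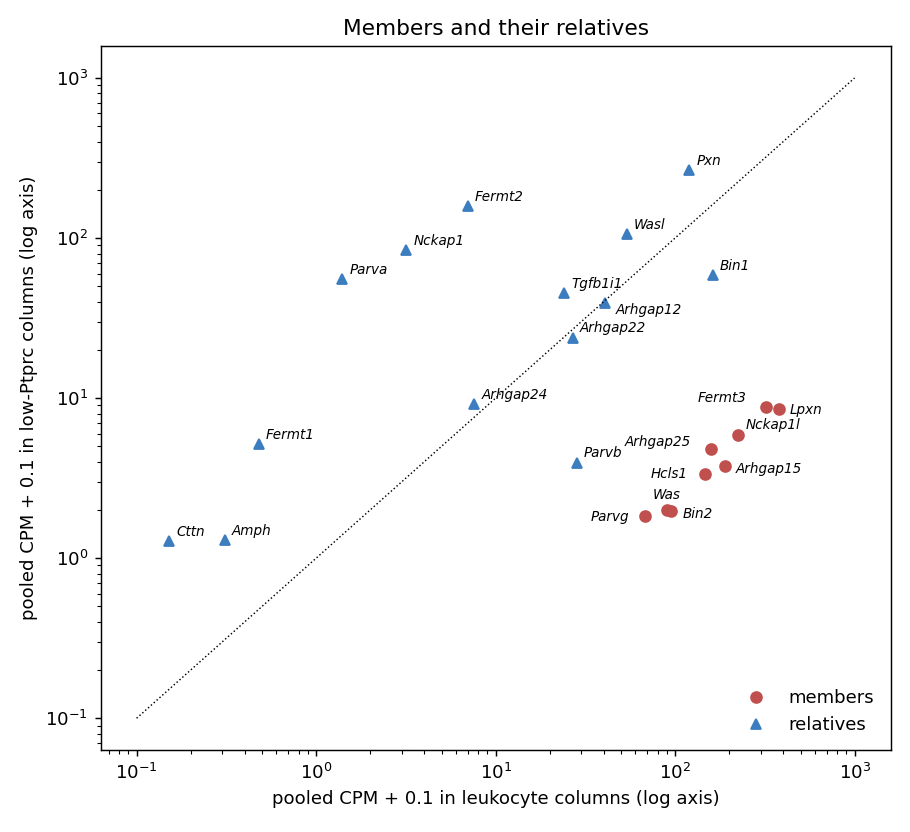
Pooled CPM + 0.1 in low-Ptprc columns (vertical) against leukocyte columns (horizontal), both axes log, for the 9 members (circles) and 14 relatives (triangles), with a dotted line at equal level. The members lie at 1.94% to 2.96% of their leukocyte level, and Nckap1, Fermt2 and Parva lie far above the line.

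The limits on Ptprc passed close to few columns. The highest low-Ptprc columns had 124, 84.6 and 66.2 CPM of Ptprc and the lowest leukocyte columns 486, 498 and 525.8 CPM. A column of an untreated tumour of rat C5 lay between the limits, at 165 CPM, and entered no comparison.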

How the data were processed

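RNA of sorted tumour fractions was amplified with SMARTer chemistry and sequenced, per the labels' protocols. The authors deposited 1 table of whole-number counts per gene symbol. Per the submitters' processing notes, STAR and FastQC were used with build rn6, and no versions are listed. How reads were counted, with which annotation and strand setting, is not given in the sources used here. Reads of overlapping genes or near-identical copies may therefore be mixed. Batch numbers come from the deposited sample table.

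CPM were computed from the deposited counts by column total. Columns with at least 300 CPM of Ptprc were taken as leukocyte columns and those under 150 CPM as low-Ptprc columns, and 1 column of the table was not used. Counts were summed per rat and tested with edgeR 4.0.16 in R 4.3.3 (limma 3.58.1) by the robust quasi-likelihood test, with TMM scaling, filterByExpr and Benjamini-Hochberg adjustment over all genes tested, at 0.05. The vehicle and treated groups entered 1 fit and share an estimate of the spread. The SE is the size of the log2 fold change divided by the root of the F statistic. The fits were tested on simulated counts with known changes between combination and vehicle rats in leukocyte columns. At an adjusted p under 0.05, edgeR recovered 25.3% of 2-fold and 67.0% of 4-fold changes, and 8 of 98 called genes were false. Changes of 2-fold or less would thus often be missed, and a member that did not pass is not shown to be unchanged. DESeq2 1.42.0 and the settings in the closing section were alternatives. Groups without overlap were counted over genes with a mean of at least 20 CPM. Nearest genes have the highest Pearson r of log2(CPM + 1). Named genes are the 9 members, Ptprc, the relatives, and the nearest genes, and pathway genes named beyond these were chosen after their values were seen. The members and gene lists were chosen with earlier results of these data known. Labels do not say whether tumours of a rat were processed apart, and counts carry no molecular identifiers, so precision from depth covers counting error only. Comparisons with mammary glands were not analysed here, since no column could be tied to a gland. The result of 1 further gene list is not reported here.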

Additional observations from a re-analysis of the deposited data

Results flagged for a closer look

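Among 90 groups of 4 to 8 rats (9 genes, 5 groups, 2 kinds of column), 21 had a lowest or highest rat set apart from the others by a gap larger than Dixon's limit. Chance meets this criterion in about 1 in 20 groups only if values are normally distributed. The CPM were not transformed and are skewed in low-Ptprc columns, so the chance rate there is not known. Rats also differ in their number of columns, and groups of different genes share their rats.

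In leukocyte columns 3 values stood apart. Nckap1l was at 133.0 CPM in inhibitor rat P17, with the next rat at 251.6 CPM. Hcls1 was at 184.8 CPM in anti-PD-L1 rat P26, with the next at 153.1 CPM. Arhgap15 was at 333.8 CPM in vehicle rat P4, with the next at 206.4 CPM.

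In low-Ptprc columns the others belonged to 3 rats. Anti-PD-L1 rat P28 was the high rat for all 9 genes, with 6.77 CPM of Was, 27.8 CPM of Nckap1l and 22.5 CPM of Hcls1. It also had 16.97 CPM of Arhgap15, 46.8 CPM of Arhgap25 and 12.9 CPM of Bin2, and 63.2 CPM of Lpxn, 51.8 CPM of Fermt3 and 13.2 CPM of Parvg. Combination rat P23 was high for 8 genes, with 9.44 CPM of Was, 41.2 CPM of Nckap1l, 12.2 CPM of Hcls1 and 35.8 CPM of Lpxn. It further had 7.33 CPM of Arhgap15, 8.82 CPM of Bin2, 36.4 CPM of Fermt3 and 12.8 CPM of Parvg. Untreated rat C9 was high for Hcls1, at 19.5 CPM. Each of P28 and P23 had 1 low-Ptprc column, with Ptprc at 124 and 36.9 CPM, and the part of remaining leukocytes in these values was not tested.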

How the results depend on the processing

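Mean levels over all rats in leukocyte columns moved by less than 1 SD under another Ptprc limit or TMM-scaled CPM. Such means do not cover the contrast of cohorts, in which Hcls1 overlapped on the TMM scale. The residual shares, 1.94% to 2.96% when pooled, were 1.64% to 2.26% at a Ptprc limit of 50 CPM and 0.836% to 1.36% as medians over columns, a drop of more than 1.5 times that is still smaller than the SD over columns. No member was called in any comparison under any setting run. The sign of a member is counted as turned where 1 of its 2 values exceeds its SE, and all such values follow. Except under scaling by Ptprc, which by its construction shifts all genes, the cause was not tested.

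The count of called genes, 0 in each comparison by edgeR, rose with DESeq2 to 153 (anti-PD-L1), 414 (inhibitor) and 335 (combination) in leukocyte columns and to 17 (inhibitor) and 4 (combination) in low-Ptprc columns. Scaling by Ptprc gave 1 gene with anti-PD-L1 and 1399 with the combination, 1 column per rat gave 49 with the inhibitor, and batch as a covariate 176 with anti-PD-L1. With 1 rat left out the counts ran from 0 to 297 with the inhibitor and from 0 to 42 with the combination. Without vehicle rat P7 they were 297 and 42, and without combination rat P33 the combination count was 3.

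Scaling by Ptprc turned log2 fold changes in leukocyte columns. With anti-PD-L1 they became -0.32 for Fermt3, -0.44 for Arhgap15, -0.0094 for Arhgap25, -0.26 for Nckap1l and -0.20 for Lpxn. With the inhibitor they became -0.31 for Was, -0.31 for Hcls1, -0.15 for Arhgap25, -0.035 for Nckap1l and -0.027 for Lpxn, and with the combination -0.35 for Fermt3, -0.095 for Nckap1l and -0.12 for Lpxn. Within batch 3, Hcls1 was at -0.27 with the inhibitor against vehicle and at 0.18 with the combination against the inhibitor. Within batch 2, a setting chosen after seeing the data for leukocyte columns, Bin2 was at 0.14 with the inhibitor and Was at 0.27 with the combination.

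In low-Ptprc columns, a Ptprc limit of 50 CPM, which removes 1 column each of P28, C9, P21 and P17 (for P28 and P21 the only one), gave with anti-PD-L1 -1.35 for Ptprc, -0.89 for Hcls1, -0.99 for Fermt3, -0.89 for Arhgap25, -0.87 for Bin2 and -0.38 for Lpxn. Within batch 2, Nckap1l was at 1.23 with anti-PD-L1, and Parvg at -1.15 and Bin2 at -1.60 with the combination. Within batch 3, chosen after seeing the data, anti-PD-L1 gave -3.44 for Parvg, -2.38 for Ptprc, -1.40 for Hcls1, -2.05 for Fermt3, -1.15 for Arhgap25, -1.58 for Bin2 and -0.78 for Lpxn, and the inhibitor -0.53 for Fermt3. With 1 rat left out, anti-PD-L1 values ran from -1.35 to 1.09 for Ptprc, -0.89 to 0.72 for Hcls1, -0.99 to 0.80 for Fermt3, -0.89 to 1.00 for Arhgap25, -0.87 to 0.99 for Bin2 and -0.38 to 1.27 for Lpxn. For the combination they ran from -1.23 to 0.67 for Parvg and -1.09 to 0.64 for Bin2. The lowest values came without P28 and without combination rat P23.

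No paired analysis was possible because each rat received 1 treatment and numbers are not shared between rats of different groups, and the planned block fit of tumours against glands was not run, since no column was tied to a gland. Amplified counts without molecular identifiers, columns grouped by a measured gene and the split of cohorts by batch limit these values, as does depth in low-Ptprc columns, where Parvg had a count of 0 in 16 of 62.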

Other observations

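The column of tumour T1 of rat C5, from the untreated cohort, lay between the Ptprc limits and entered no comparison. It had 1420 counts of Ptprc among 8586884, or 165 CPM. Its members stood at 130 CPM for Was, 92.6 CPM for Nckap1l and 127 CPM for Hcls1, at 48.6 CPM for Arhgap15 and 54.5 CPM for Arhgap25, and at 74.3 CPM for Bin2. The adhesion genes stood at 247 CPM for Fermt3, 78.8 CPM for Parvg and 329 CPM for Lpxn. These levels lay inside the range of the leukocyte columns for 7 of the 9 genes, and below it for Nckap1l and Arhgap15.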
